A study of Arabidopsis thaliana with 20 samples.

Results

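RNA that stays on chromatin was set against messenger RNA in wild-type Arabidopsis thaliana seedlings, gene by gene and function by function. Each gene received a percentile rank in chromatin-bound RNA, separately in each of 2 replicate columns, and a percentile rank in mRNA. The genes compared were the nuclear genes with at least 1 FPKM in either kind of RNA, the chromatin-bound value being the mean of the 2 columns. They numbered 20806 of the 33554 genes present in both tables. FPKM (fragment counts scaled to transcript length and to the size of the library) is a level per unit of length, so it puts genes of different length on 1 scale within a column. The percentile rank says how many of the compared genes lie below a gene in its own column, and the rank shift is the percentile on chromatin minus the percentile in mRNA. Unless a replicate is named, a shift is that of the mean of the 2 chromatin columns. Genes just inside the minimum were AT1G50790 and AT3G11460, both at 1.00 FPKM in the higher kind of RNA. AT1G54400 and AT1G17630 lay just outside at 0.999 FPKM.

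The seedlings were wild-type Col-0, grown on half-strength Murashige and Skoog medium for 10 days at 22 °C with 16 h light and 8 h dark. Chromatin-bound RNA came from 4 libraries under 2 replicate numbers, from urea-washed nuclei, with ribosomal RNA and residual polyadenylated RNA depleted before strand-specific sequencing, per the labels. The mRNA came from 3 libraries, deposited as 1 value per gene. The same 2 kinds of RNA from the rz-1b rz-1c double mutant, which is mutated in a pair of genes for RNA-binding proteins and was grown in the same way, are given beside them. The minimum and the wild-type calls used no mutant value.

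Chromatin-bound RNA is enriched for transcripts still attached to RNA polymerase or only recently released, many of them not yet fully spliced. Messenger RNA is the mature pool, whose level depends on synthesis and on how long each message lasts. A message made fast and destroyed fast can therefore rank high on chromatin and low in the mature pool, while a stable message can do the reverse, and RNAs that carry no poly(A) tail are largely missing from polyadenylated preparations.

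With 1 mRNA value per gene and no replicates on that side, no difference between the 2 kinds of RNA could be tested, and every shift below is a description of these columns. The kind of RNA, the library preparation and the program that made the values cannot be told apart here. How the mRNA libraries were prepared is not stated, and the labels do not say whether both kinds of RNA came from the same seedlings or from the same hour of the day. In a seedling, fewer cells of a type and less RNA per cell cannot be told apart either. Ribosomal RNA genes took 53.6% and 60.5% of the chromatin-bound column totals and 0.0586% of the mRNA total, which lowers every other FPKM on chromatin but leaves the order of the other genes as it is. Leaf markers ranked near the top of both kinds of RNA. RBCS1A, the small subunit of Rubisco, had 912 and 654 FPKM on chromatin and 7784 in mRNA. Of the 5 seed markers 2 passed the minimum, and of the 5 flower markers 1 did. Root markers were present in mRNA and low on chromatin, as described further on. In the mutant, RZ-1C was lower on chromatin, at 4.59 and 4.27 FPKM against 16.7 and 13.1 in the wild type, and in mRNA, at 2.77 against 31.7. RZ-1B was lower in mutant mRNA, at 2.299 against 15.2 FPKM, but higher on mutant chromatin, at 132 and 143 against 10.5 and 9.42. The sources used here do not say which part of RZ-1B is disrupted.

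Both kinds of RNA shared a broad order, with a wide spread around it. Across genes, which are not independent replicates, Spearman's rho with mRNA was 0.671 for chromatin replicate 1 and 0.648 for replicate 2, against 0.959 between the 2 chromatin replicates. The median absolute shift was 12.7 percentile points, while the median absolute rank difference between the 2 chromatin replicates was 4.05 points. The 2081 highest genes of each kind of RNA shared 1022. A further 213 of the highest genes on chromatin lay at or below the 50th percentile of mRNA, and 108 of the highest genes in mRNA lay at or below the 50th percentile on chromatin. A gene at the 50th percentile had 8.02 and 7.04 FPKM in the chromatin replicates and 12.2 in mRNA. A gene at the 90th percentile had 34.4 and 31.1 FPKM on chromatin and 71.9 in mRNA.

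A shift of at least 25 points in the same direction in each chromatin replicate was taken as the threshold. By that rule 2027 genes, 9.74% of those compared, ranked higher on chromatin, and 1926, 9.26%, ranked higher in mRNA. By contrast, 6693 genes, 32.2%, stayed within 10 points in both replicates. Past 25 points in 1 replicate but not in the other were 941 genes on the chromatin side and 1117 on the mRNA side. Between the chromatin replicates themselves, 152 genes stood 25 points or more higher in replicate 1 and 126 in replicate 2. These shares are the background against which the gene groups below are read. The minimum itself favours 1 side for low genes. It was reached on chromatin alone by 1297 genes and in mRNA alone by 1823, and a gene that entered through 1 kind of RNA is high there by that choice. Of the 2027 genes on the chromatin side 1605 also had at least 1 FPKM in mRNA, and of the 1926 on the mRNA side 1512 also had it on chromatin.

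**Figure D1:**
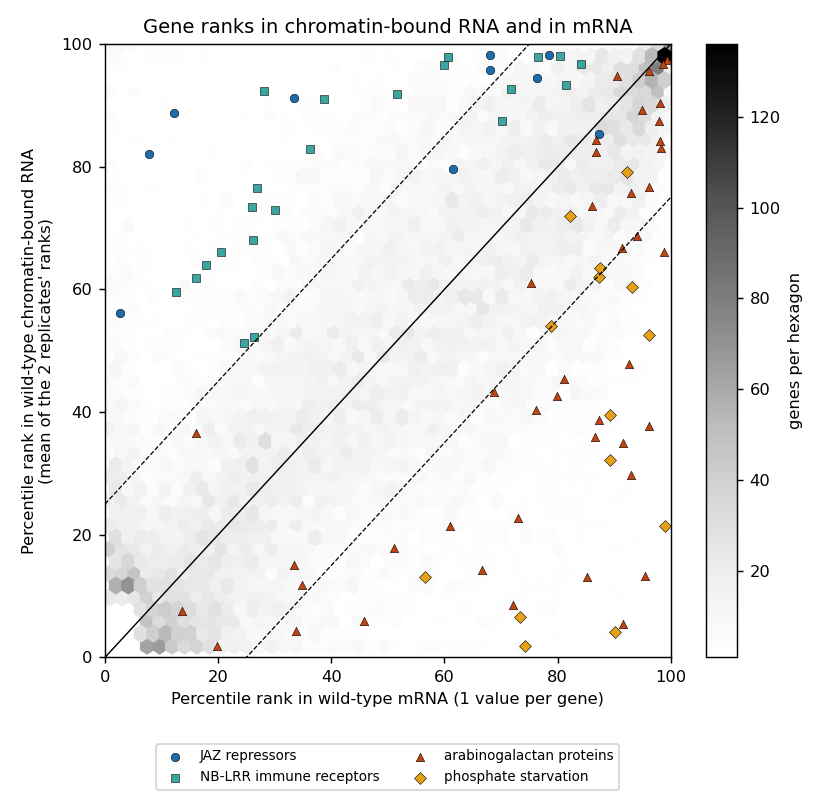
Percentile rank of each gene in wild-type mRNA (horizontal, 1 value per gene) against its mean percentile rank in wild-type chromatin-bound RNA (vertical), with grey hexagons shaded by the number of genes and the dashed lines 25 points from equal rank. JAZ repressors and NB-LRR immune receptors lie mostly above the equal-rank line, and arabinogalactan proteins and phosphate starvation genes mostly below it.

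The highest levels on chromatin were those of ribosomal RNA, which does not become an ordinary polyadenylated message. All 4 nuclear ribosomal RNA genes compared had between 57326 and 209604 FPKM in the chromatin replicates, and 3 of the 4 passed the threshold. AT3G41979 had 180536 and 209604 FPKM on chromatin and was listed at 0 in mRNA, and AT2G01020 had 168061 and 203642 and was also listed at 0. AT3G41768 was the exception, with 77737 and 96704 FPKM on chromatin but 545 in mRNA, a shift of 0.79 points. Of the 10 spliceosomal small nuclear RNAs, the RNA cores of the splicing particles, 9 passed the threshold on the chromatin side, with a median shift of 85.8 points. The minimum was reached on chromatin alone by 7 of the 10. U4.2 had 278 and 345 FPKM on chromatin and 0.466 in mRNA, and U2.5 had 129 and 171 on chromatin and 0.558 in mRNA. The exception was U6-1, with 1.90 and 2.38 FPKM on chromatin and 0 listed in mRNA. U6-1 had a shift of 18.2 points, since it was low on chromatin as well.

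Small nucleolar RNAs, which guide the chemical modification of ribosomal RNA, entered the comparison mostly through chromatin. Of 67, 57 reached 1 FPKM there alone and 56 were listed at 0 in mRNA, so the sign of most shifts follows from the minimum. The threshold was passed by 42 on the chromatin side, 3 of them with at least 1 FPKM in mRNA, and by 1 on the mRNA side, and the median shift was 45.6 points. AT2G05765 had 696 and 563 FPKM on chromatin and AT3G24615 had 166 and 161, and both were listed at 0 in mRNA. The single snoRNA on the other side was AT1G74453, with 10.3 and 4.07 FPKM on chromatin and 132 in mRNA. All 63 transfer RNA genes compared were listed at 0 in mRNA, so their positive shifts say only that they were above 0 on chromatin. The 7SL RNA gene AT7SL-1 (AT4G02970), the RNA part of the signal recognition particle, stands among the protein-coding genes in RefSeq. It had 274 and 240 FPKM on chromatin and 0.437 in mRNA.

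Pseudogenes also entered mostly through chromatin, with 91 of 173 at 1 FPKM there alone. Past the threshold towards chromatin were 34, of which 7 had at least 1 FPKM in mRNA, and towards mRNA 5. Of 153 transcribed pseudogenes 66 entered through chromatin alone, and 43 passed the threshold towards chromatin, 18 of them with at least 1 FPKM in mRNA, against 5 towards mRNA. Of 172 long noncoding RNAs, 34 passed the threshold towards chromatin and 31 towards mRNA. The minimum was reached on chromatin alone by 42 and in mRNA alone by 41. Of the 34, 18 also had at least 1 FPKM in mRNA, and of the 31, 9 had it on chromatin. Another gene is overlapped by 168 of the 172, and their values are uncertain for that reason. AT3G59068, for example, had 344 and 329 FPKM on chromatin and 0.711 in mRNA and overlaps AT3G59070. AT3G22121 had 0 listed in both chromatin columns and 686 in mRNA and overlaps CWLP. The 19907 protein-coding genes had a median shift of -1.09 points, with 1807 and 1847 past the threshold.

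**Figure D2:**
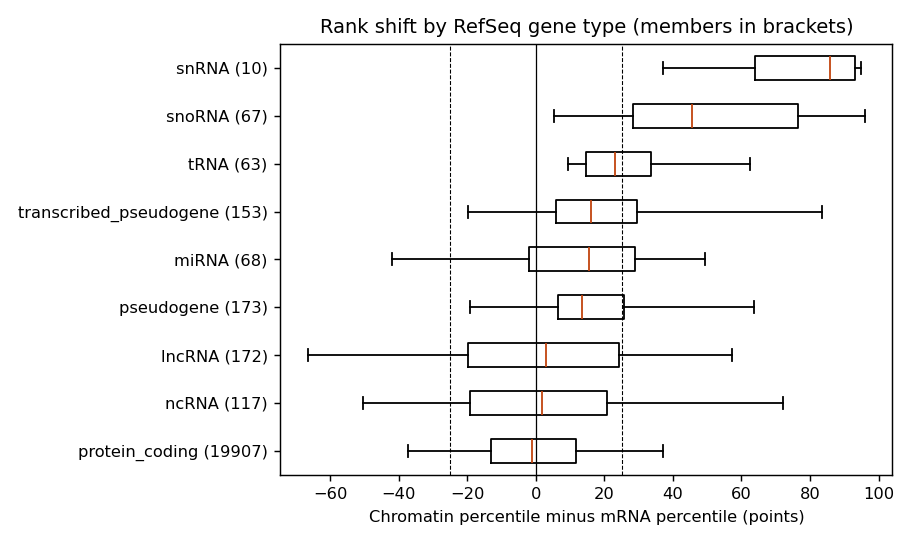
Rank shift (chromatin percentile minus mRNA percentile, in points) by RefSeq gene type, for types with at least 10 genes. Boxes span the quartiles, the coloured line is the median and whiskers run from the 5th to the 95th percentile; snRNAs and snoRNAs stand furthest to the chromatin side, with medians of 85.8 and 45.6 points, and protein-coding genes centre near 0.

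MicroRNA precursors fell on both sides, with 15 of 68 past the threshold towards chromatin and 7 towards mRNA. Their primary transcripts are cut in the nucleus, and 34 of the 68 were listed at 0 in mRNA. The minimum was reached on chromatin alone by 37, and 7 of the 15 also had at least 1 FPKM in mRNA. MIR156a, whose product restrains the transition to the adult phase, had 8.04 and 8.04 FPKM on chromatin and 0 listed in mRNA. MIR168a, whose product acts on AGO1, had 8.39 and 7.46 on chromatin and 0 listed in mRNA. MIR398c and MIR408, both known from the response to low copper, had 9.97 and 16.9 FPKM and 13.1 and 13.0 FPKM on chromatin, against 1.77 and 2.47 in mRNA. MIR408 overlaps AT2G47020. MIR156a and MIR168a were chosen after their values were seen. The copper-related MIR398b and MIR397b stood at the other end. MIR398b was listed at 0 in both chromatin columns and had 169 FPKM in mRNA, but it overlaps AT5G14550. MIR397b had 0.331 and 0 on chromatin and 67.8 in mRNA, and in the mutant it was listed at 0 in mRNA.

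Among the protein-coding genes with the largest shift towards chromatin, several have a close copy elsewhere in the genome. SPL13B, a transcription factor of the phase change, had 117.4 and 59.6 FPKM on chromatin and was listed at 0 in mRNA. Its copy SPL13A had almost the same values on chromatin, 117.2 and 59.9 FPKM, and 0.479 in mRNA. AT1G59124 had 80.5 and 93.3 FPKM on chromatin, close to the 76.0 and 87.4 of AT1G58807. In mRNA the first was listed at 0 and the second had 1.402 FPKM. The pairs AT1G18020 with AT1G17990 and AT1G59218 with AT1G58848 showed the same pattern, so that 4 of the 10 largest shifts belong to genes whose chromatin values sit beside those of a copy. Reads shared between copies may have been counted in different ways in the 2 kinds of RNA, and these genes are uncertain. The 4 copies were looked up after the values were seen.

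The other protein-coding genes of that group were AT5G10340, AT5G53740, AT5G53905, AT3G08520 and AT4G05631. AT5G10340 had 353 and 476 FPKM on chromatin and 0.0510 in mRNA, with no overlapping gene. AT5G53740 had 265 and 352 FPKM on chromatin and 0.175 in mRNA, and overlaps AT5G53742. AT5G53905 had 79.8 and 88.3 FPKM and was listed at 0 in mRNA. It overlaps the U3B small nucleolar RNA gene, which had 1213 and 1541 FPKM on chromatin. A 0 in the mRNA table can be a failed estimate, and 35 genes listed at 0 there had a mean of at least 20 FPKM on chromatin, 13 of them protein coding.

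Immune receptor genes ranked higher on chromatin as a group. NB-LRR proteins sense pathogen effectors inside the cell, and their dosage is known to be held low because excess receptor triggers immunity. All 22 NB-LRR genes examined had a positive shift, from 11.8 to 64.3 points, and 14 (63.6%, beside 9.74% of all genes) passed the threshold, none on the mRNA side. All 14 had at least 1 FPKM in mRNA. The median shift was 39.3 points in replicate 1 and 42.9 points in replicate 2. LAZ5 had 37.2 and 41.6 FPKM on chromatin and 5.21 in mRNA. The helper receptor NRG1.1 had 47.0 and 28.1 on chromatin and 8.25 in mRNA. RRS1 and RPS4, which work as a pair against bacterial effectors, had 17.7 and 16.7 FPKM and 12.8 and 13.1 FPKM on chromatin, against 4.88 and 4.69 in mRNA. Both members of this pair lay above the 65th percentile on chromatin and below the 27th in mRNA. The smallest shifts were those of ADR1-L1 and ZAR1, with 11.8 and 12.6 points, both already above the 80th percentile in mRNA. RRS1 and RPS4 were chosen after their values were seen.

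Receptor kinases, a broad class of cell-surface receptors matched by name that serve development as well as defence, leaned the same way. Of 125, 46 (36.8%) ranked higher on chromatin past the threshold and 1 (CRK25) in mRNA, with a median shift of 19.4 points. The minimum was reached on chromatin alone by 29 of the 125, and 34 of the 46 had at least 1 FPKM in mRNA. The lectin receptor kinase LECRKA4.1 had 18.8 and 23.7 FPKM on chromatin and 0.0122 in mRNA, although it overlaps AT5G01542. Among the receptor kinases 4 were listed at 0 in mRNA. WRKY transcription factors, many of which act in defence, had 14 of 58 (24.1%) past the threshold towards chromatin and 1 towards mRNA. WRKY48 had 27.0 and 28.8 FPKM on chromatin and 2.39 in mRNA. WRKY65 had 7.39 and 7.30 FPKM on chromatin and 48.5 in mRNA, and was the member on the mRNA side.

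Genes of salicylic acid signalling and of camalexin synthesis, the main antimicrobial compound of Arabidopsis, had a list median of 41.1 points in replicate 1 and 55.1 in replicate 2. Of 16 genes, 12 (75%) passed the threshold towards chromatin and none towards mRNA. The minimum was reached on wild-type chromatin alone by 8 of the 16, SAG13, CYP82C2 and PR1 among them, which had to rank higher there. Of the 12, 5 had at least 1 FPKM in mRNA. PR2 and ALD1 of the same list missed the minimum and were not compared. SAG13 had 47.8 and 86.7 FPKM on chromatin and 0.0693 in mRNA. CYP82C2 had 26.2 and 45.1 on chromatin and 0.0112 in mRNA. The salicylic acid marker PR1 had 7.63 and 25.2 FPKM on chromatin and 0.139 in mRNA. Replicate 2 was above replicate 1 in each of these 3 genes. SID2 and NPR1 were the least shifted of the 16, at 15.1 and 15.2 points. Among other regulators of the list, SARD1 with 81.0 points and CBP60G with 43.7 passed the threshold, while EDS1 with 16.5 did not. SID2, the enzyme that makes most salicylic acid, had 7.71 and 9.69 FPKM on chromatin and 8.57 in mRNA, and NPR1, the salicylic acid receptor, had 16.4 and 16.0 on chromatin and 16.7 in mRNA.

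In the mutant the list median was -8.32 and -9.14 points in the 2 replicates. The members entered by their wild-type values, so the 2 genotypes were not treated alike by the minimum. The mutant values named next were chosen for their difference. CYP71A12, a camalexin enzyme, had 31.0 and 57.7 FPKM on wild-type chromatin and 0.870 in wild-type mRNA. On mutant chromatin it was listed at 0 in replicate 1 and had 0.322 in replicate 2, while mutant mRNA had 116 FPKM. PAD3, the enzyme of the last step to camalexin, had 16.6 and 24.3 FPKM on wild-type chromatin against 1.18 and 1.14 on mutant chromatin, and 1.18 FPKM in wild-type mRNA against 22.0 in mutant mRNA. For CYP71A12 and PAD3 the wild type was thus the higher genotype on chromatin and the mutant the higher one in mRNA. NB-LRR receptors had mutant medians of 34.5 and 36.3 points.

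**Figure D3:**
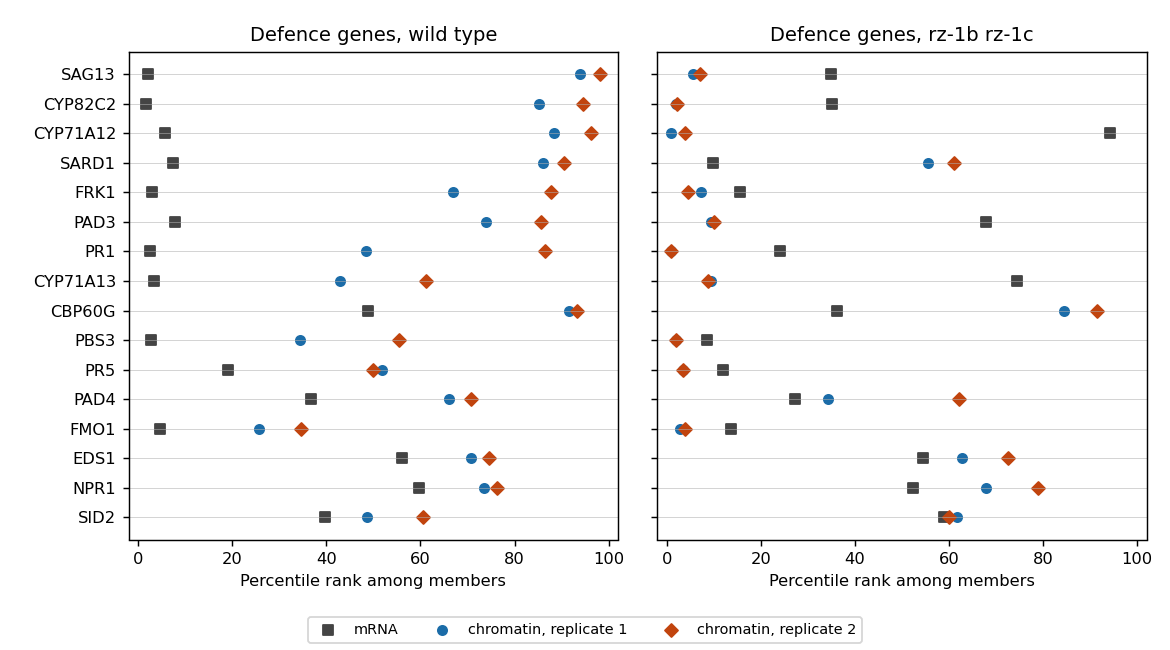
Percentile rank of 16 defence genes in mRNA (squares) and in each chromatin replicate (circles and diamonds), in the wild type (left) and in rz-1b rz-1c (right), ranks being taken among the same 20806 genes. In the wild type every gene ranks higher on chromatin than in mRNA. In the mutant CYP71A12, CYP71A13, PAD3, CYP82C2 and SAG13 rank lower on chromatin than in mRNA past the threshold. PR1, FMO1, FRK1, PR5 and PBS3 also rank lower on mutant chromatin, without passing it.

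Hormone repressors split by hormone. JAZ proteins repress the jasmonate response and are themselves induced by jasmonate, and 9 of 10 JAZ genes had a positive shift. Past the threshold towards chromatin were 6 of 10 (60.0%), and none towards mRNA. JAZ5 had 43.0 and 23.1 FPKM on chromatin and 1.82 in mRNA, and JAZ7 had 29.9 and 16.1 on chromatin and 1.18 in mRNA. JAZ12 showed no such shift, with 34.6 and 19.3 FPKM on chromatin and 57.0 in mRNA. Replicate 1 was above replicate 2 for all 10 in FPKM. The JAZ order was alike in the mutant, with list medians of 41.4 and 31.9 points.

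Aux/IAA proteins, the counterparts in the auxin response, leaned to mRNA. None of the 15 passed the threshold towards chromatin and 4 (26.7%) did towards mRNA, with a median of -13.7 points. Of those 4, 3 also had at least 1 FPKM on chromatin, and IAA29 had reached the minimum in mRNA alone. IAA1 had 2.61 and 2.99 FPKM on chromatin and 28.6 in mRNA. IAA29 had 0.526 and 0 on chromatin and 11.2 in mRNA. SAUR genes, small auxin-induced growth genes whose messages are known to be unstable, leaned further the same way. Of 62, 23 (37.1%) passed the threshold towards mRNA and 1 towards chromatin, with a median of -17.8 points. The minimum was reached in mRNA alone by 31 of the 62, and 10 of the 23 also had at least 1 FPKM on chromatin. SAUR31 (AT4G00880) had 0.790 and 0.5997 FPKM on chromatin and 43.0 in mRNA. The exception, SAUR79 (AT2G35290), had 22.0 and 16.1 on chromatin and 2.95 in mRNA.

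Early-response transcription factors, induced within minutes by wounding, cold or elicitors, had a median percentile of 88.1 and 90.6 in the chromatin replicates and 68.4 in mRNA. The median shift was 13.2 points, and 20 of 25 were positive. Past the threshold, 5 (20%) lay towards chromatin and none towards mRNA. RRTF1 had 46.4 and 29.6 FPKM on chromatin and 1.12 in mRNA, and WRKY18 had 106 and 87.2 on chromatin and 12.0 in mRNA. CBF1, a cold-response activator, lay the other way, with 4.53 and 1.72 FPKM on chromatin and 13.6 in mRNA. CBF1 did not pass the threshold because replicate 1 was only 20.3 points lower.

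Clock genes divided within 1 list. The plant clock is built from genes that peak at successive hours of the day, starting with the dawn genes LHY and CCA1. Of 17, 5 (29.4%) ranked higher on chromatin past the threshold and 6 (35.3%) in mRNA. Of those 6, 4 also had at least 1 FPKM on chromatin, while PRR7 and PRR9 had reached the minimum in mRNA alone. LHY had 87.1 and 93.1 FPKM on chromatin and 3.07 in mRNA. RVE8, a related dawn gene, had 132 and 104 on chromatin and 5.59 in mRNA. The others on that side were CCA1, RVE1 and ELF3. PRR7, a daytime repressor of LHY and CCA1, had 0.272 and 1.58 FPKM on chromatin and 75.04 in mRNA. GI, an evening-phased regulator of flowering and light signals, had 0.826 and 1.42 on chromatin and 34.5 in mRNA. ELF4, LNK1, FKF1 and PRR9 completed that side. The 4 dawn genes LHY, CCA1, RVE1 and RVE8 thus all ranked higher on chromatin, while the genes of the day and evening ran from the 6 on the mRNA side through LUX and ZTL, which were even, to ELF3. The labels give no hour of harvest for either kind of RNA, and its part in this split was not tested. In the mutant LHY kept a shift of 75.8 points and RVE8 of 67.5 points, while PRR7 had -26.7 and GI -9.71.

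**Figure D4:**
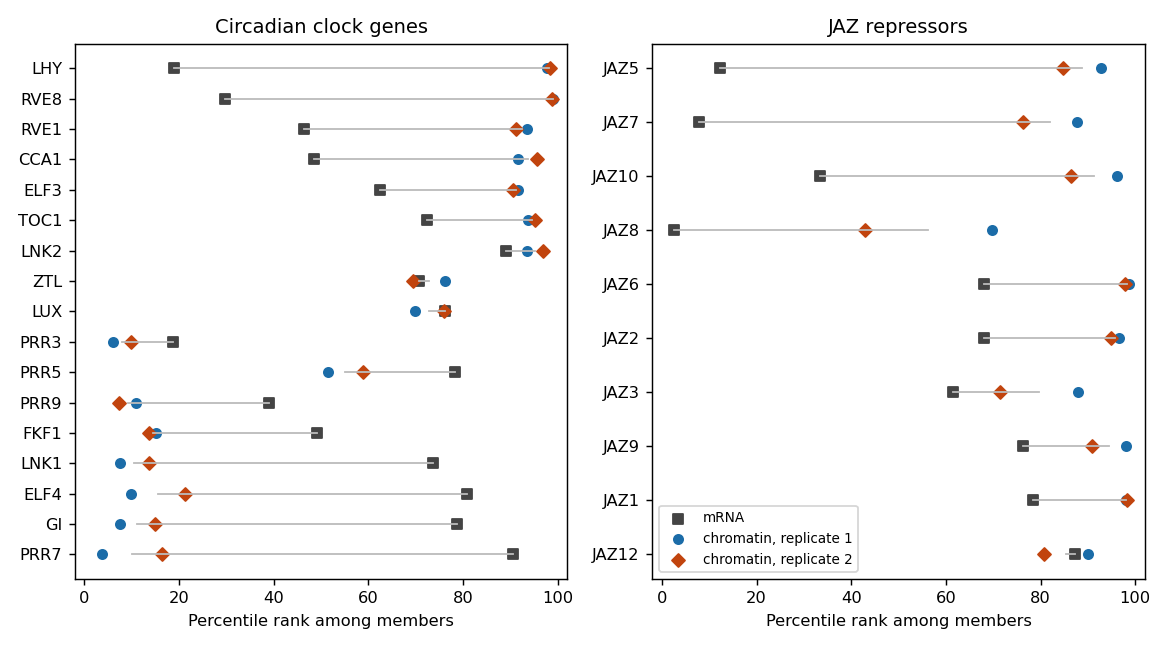
Percentile rank in wild-type mRNA (squares) and in each chromatin replicate (circles and diamonds) for 17 circadian clock genes (left) and 10 JAZ repressors (right), ordered by rank shift; lines join the mRNA rank to the mean chromatin rank. LHY, RVE8, RVE1 and CCA1 lie far to the right on chromatin, and PRR7, GI, ELF4 and LNK1 far to the left.

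Of 13 light signalling genes 2 passed the threshold, both towards mRNA. Both had reached the minimum in mRNA alone, which favours that side. PIF4, a growth-promoting factor under clock control, was listed at 0 in both chromatin columns and had 98.6 FPKM in mRNA. HFR1, which restrains PIF factors, had 0.892 and 0.648 FPKM on chromatin and 8.24 in mRNA. The photoreceptor gene PHYB and the ubiquitin ligase gene COP1 lay on the other side without passing the threshold, with shifts of 18.2 and 24.8 points. The list had a median of -1.32 points.

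Chromatin regulators and silencing genes leaned towards chromatin. Of 24 chromatin regulators and silencing genes, 8 (33.3%) passed the threshold towards chromatin and none towards mRNA, and 23 had a positive shift. DCL1, which cuts microRNA precursors, had 32.6 and 29.8 FPKM on chromatin and 7.70 in mRNA. DCL1 holds the MIR838 gene within an intron and overlaps AT1G01050. DCL2, which makes small RNAs against viruses, had 21.0 and 23.1 on chromatin and 6.72 in mRNA. The other genes past the threshold were DCL4, INO80, BRM, SYD, SDG8 and PIE1, of which BRM and SYD encode the motors of SWI/SNF nucleosome remodelling. The DNA methylation genes MET1 and DDM1 showed little shift, with 3.81 and -0.78 points. Kinesins and myosins, the motor proteins of the cytoskeleton, had 9 of 36 (25.0%) past the threshold towards chromatin and none towards mRNA. ABC transporters, membrane pumps driven by ATP, had 30 of 97 (30.9%) towards chromatin and 3 towards mRNA. ABCG40, a hormone transporter, had 20.4 and 32.3 FPKM on chromatin and 0.275 in mRNA. ABCI5 had 23.6 and 17.3 on chromatin and was listed at 0 in mRNA, but it lies in the stretch of chromosome 2 known to hold a copy of mitochondrial DNA and its value is uncertain.

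The machinery of transcription and splicing itself was close to even. RNA polymerase II and elongation factors had none of 13 past the threshold in either direction, with a median of 6.63 points. NRPB1, the largest subunit of the polymerase, had 37.9 and 35.1 FPKM on chromatin and 26 in mRNA. SR splicing factors had 2 of 20 towards chromatin, RS31a and SR34b, with 15.5 and 14.96 FPKM and 38.4 and 35.8 FPKM on chromatin against 5.01 and 13.1 in mRNA. In the spliceosome core, STA1 ranked higher on chromatin, with 38.4 and 39.5 FPKM there and 20.6 in mRNA. SMD1B, a small ring protein of the splicing particles, ranked higher in mRNA, with 8.81 and 6.93 FPKM on chromatin and 54.7 in mRNA. RNA decay and surveillance genes leaned towards chromatin, with 14 of 16 positive and a median of 14.3 points. Only 1 of the 16, the exosome nuclease RRP44A, passed the threshold. By the mean of the 2 columns the RZ-1 genes lay within 25 points, at 14.3 for RZ-1A, 2.73 for RZ-1B and -4.59 for RZ-1C. The replicates differed for RZ-1A, at -5.68 points in replicate 1 and 29.2 in replicate 2.

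Highly expressed metabolic genes held the same rank in both. None of 44 light-harvesting and photosystem genes passed the threshold, all 44 had a shift at or below -0.07 points, and the median was -1.37. LHCB1.3, a main antenna protein, had 1420 and 960 FPKM on chromatin and 23997 in mRNA. PETE1, the minor plastocyanin, had the largest shift, with 23.7 and 18.4 FPKM on chromatin and 252 in mRNA. None of 17 Calvin cycle genes and none of 18 housekeeping genes passed it, with medians of -0.05 and 0.39 points. A gene at the top of both kinds of RNA cannot move far in rank, so these values do not speak of the ratio between the levels. Of 48 ribosomal proteins with names, 5 (10.4%) passed the threshold towards mRNA, with a median of -2.36 points. Of 38 proteasome subunits, 2 (5.26%) did, with a median of -6.44. These shares are near or below the 9.26% of all genes. Both groups rank high in mRNA, at median percentiles of 97.6 and 89.2, so their small negative medians are not read as a lean.

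Histones, whose core messages are short and made in S phase, ranked somewhat lower on chromatin. All 30 had a negative shift, with a median of -16.1 points, and 4 (13.3%, beside 9.26% of all genes) passed the threshold. Their median percentile in mRNA was 95.5, which leaves little room for a positive shift, so the shared sign is not by itself a trait of histones. The linker histone HIS1-3, known to be induced by drought, had 1.404 and 3.299 FPKM on chromatin and 62.4 in mRNA. An H3.1 gene, AT3G27360, had 7.89 and 2.39 on chromatin and 54.0 in mRNA. The replication-independent H3.3 genes AT4G40040 and AT4G40030 were nearly even, at -0.11 and -3.93 points. Cell division genes had 1 of 9 past the threshold, CDKB2;1, with 6.08 and 3.92 FPKM on chromatin and 24.5 in mRNA.

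Several lists of secreted and cell wall proteins had a larger share towards mRNA than the 9.26% of all genes. Arabinogalactan proteins, heavily glycosylated proteins of the cell surface, had 20 of 43 (46.5%) past the threshold towards mRNA and none towards chromatin, with a median of -24.5 points. Of those 20, 16 also had at least 1 FPKM on chromatin, and AGP13 had reached the minimum in mRNA alone. AGP13 had 0.963 and 0 FPKM on chromatin and 83.4 in mRNA. AGP14 had 3.08 and 0 on chromatin and 146 in mRNA. Expansins and extensins, which loosen and crosslink the wall, had 15 of 38 (39.5%) towards mRNA and 1 (EXLA3) towards chromatin. EXPA8 had 2.12 and 2.19 FPKM on chromatin and 110 in mRNA. Genes matched by name as secreted signalling peptides had 19 of 59 (32.2%) towards mRNA and none towards chromatin. The match took in the cysteine endopeptidases CEP1, CEP2 and CEP3, of which CEP2 and CEP3 are among the 19. The minimum was reached in mRNA alone by 20 of the 59, and 11 of the 19 also had at least 1 FPKM on chromatin. RGF9, a root growth peptide, had 2.90 and 1.24 FPKM on chromatin and 142 in mRNA.

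Further groups of the surface leaned the same way with fewer genes past the threshold. Aquaporins, the water channels, had 6 of 29 (20.7%) towards mRNA, led by PIP2;4, with 1.98 and 0.947 FPKM on chromatin and 67.4 in mRNA. Xyloglucan transglucosylases had 4 of 29 towards mRNA and 2 towards chromatin. XTH31 had 5.01 and 1.49 FPKM on chromatin and 94.1 in mRNA, while XTR6 had 69.5 and 91.2 on chromatin and 10.9 in mRNA. Cellulose synthase family genes, which encode membrane enzymes of the same wall, had 5 of 33 (15.2%) towards chromatin and none towards mRNA, and medians of 6.90 and 2.85 points in the 2 replicates. Plant defensins, small secreted peptides, had 3 of 8 towards mRNA and a median of -11.7 points, a sign that depended on the minimum level.

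Root hair genes and some other root genes lay on the mRNA side. The 4 root markers PRP3, EXPA7, IRT1 and COBL9 all passed the threshold towards mRNA, with shifts from -49.7 to -31.1 points. IRT1 and COBL9 had reached the minimum in mRNA alone, which favours that side. PRP3, a root hair wall protein, had 5.77 and 5.74 FPKM on chromatin and 81.1 in mRNA. Of 9 root hair genes 6 passed it, led by PRP1 with 2.86 and 3.14 FPKM on chromatin and 38.4 in mRNA. PRP3, EXPA7 and COBL9 are 3 of these 6, and 4 of the 6 also had at least 1 FPKM on chromatin. Of 9 other root genes 4 passed it, CASP1, CASP2, PHO1 and the marker IRT1. Only 2 of these, CASP1 and PHO1, also had at least 1 FPKM on chromatin. CASP1 and CASP2, which scaffold the Casparian strip of the endodermis, had 2.26 and 1.27 FPKM and 0.621 and 1.04 FPKM on chromatin, against 75.5 and 27.2 in mRNA. The root regulators SCR, PLT2, PLT1 and SHR and the iron reductase FRO2 did not pass it, with shifts of 2.48, 0.15, -3.58, -8.14 and -8.26 points. The 5 leaf markers had shifts from -3.33 to 0.03 points, and none passed the threshold. Their median percentile in mRNA was 99.9, and genes at the top of both kinds of RNA cannot move far in rank. The leaf markers therefore give no measure against which the root shifts can be read. Whether the share of root tissue differed between the preparations was not tested.

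Nutrient and specialised metabolism genes followed. Of 14 phosphate starvation genes 9 (64.3%) passed the threshold towards mRNA and none towards chromatin, and all 14 had a negative shift. Through mRNA alone 3 of the 14 reached the minimum, IPS1 among them, and 6 of the 9 also had at least 1 FPKM on chromatin. The median was -50.3 points in replicate 1 and -32.4 in replicate 2. AT4 and IPS1 are polyadenylated noncoding RNAs that sequester miR399, although RefSeq lists them as protein coding. AT4 had 1.80 and 3.08 FPKM on chromatin and 475 in mRNA, and IPS1 had 0 and 0.499 on chromatin and 72.8 in mRNA. PHO2, the target of miR399, was the least shifted, at -10.0 points.

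Glucosinolate genes, which make the sulfur-rich defence compounds of the cabbage family, had 8 of 16 (50.0%) past the threshold towards mRNA and none towards chromatin. CYP79F1, the entry enzyme for compounds derived from methionine, had 3.27 and 1.76 FPKM on chromatin and 48.3 in mRNA. CYP79B2, the entry enzyme for compounds derived from tryptophan, had 53.2 and 75.2 on chromatin and 89.7 in mRNA, a shift of 4.40 points. CYP83B1, the next tryptophan enzyme, had a shift of 2.04 points.

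Some large families had shares near those of all genes. Of 166 cytochrome P450 genes, which oxidise hormones and specialised metabolites, 21 (12.7%) passed the threshold towards chromatin and 17 (10.2%) towards mRNA. MYB transcription factors had 6 (6.52%) and 5 (5.43%) of 92. MYB15, known from defence and cold, had 24.7 and 26.6 FPKM on chromatin and 0.228 in mRNA, while MYB29, a regulator of glucosinolates from methionine, had 0.447 and 0 on chromatin and 10.8 in mRNA. Genes matched by name as ERF and DREB transcription factors had 6 (11.3%) and 3 (5.66%) of 53. The match also took in genes outside that family, among them ERF1-1, ERF1-2, ERF1-3, NAP57, DRIP1 and DRIP2. None of those named passed the threshold. Helicases had 3 of 25 (12%) towards chromatin and none towards mRNA. Of 15 tubulins, TUB1 alone passed the threshold, towards mRNA, with 3.57 and 0.656 FPKM on chromatin and 51.7 in mRNA.

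The metallothionein MT1A, a small cysteine-rich protein that binds copper, had 0.650 and 1.03 FPKM on chromatin and 2486 in mRNA. It overlaps AT1G07590. Its relatives all had negative shifts without passing the threshold, from -24.1 points for MT1C to -0.44 for MT2B. AT1G51402 had 0.0364 and 0 FPKM on chromatin and 634 in mRNA but overlaps AT1G51400. The other genes with the largest shifts towards mRNA were AT2G44130, AT4G33550, AT2G18270, AT2G16005 and AT5G04120, between 64.9 and 126 FPKM in mRNA. None of these 5 was above 1.09 FPKM in either chromatin column. Overlap with another gene was more frequent among the 21 genes listed at 0 in both chromatin columns with at least 20 FPKM in mRNA, of which 13 (61.9%) overlapped one, beside 29.2% of all genes compared. Its part in those values was not tested.

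**Figure D5:**
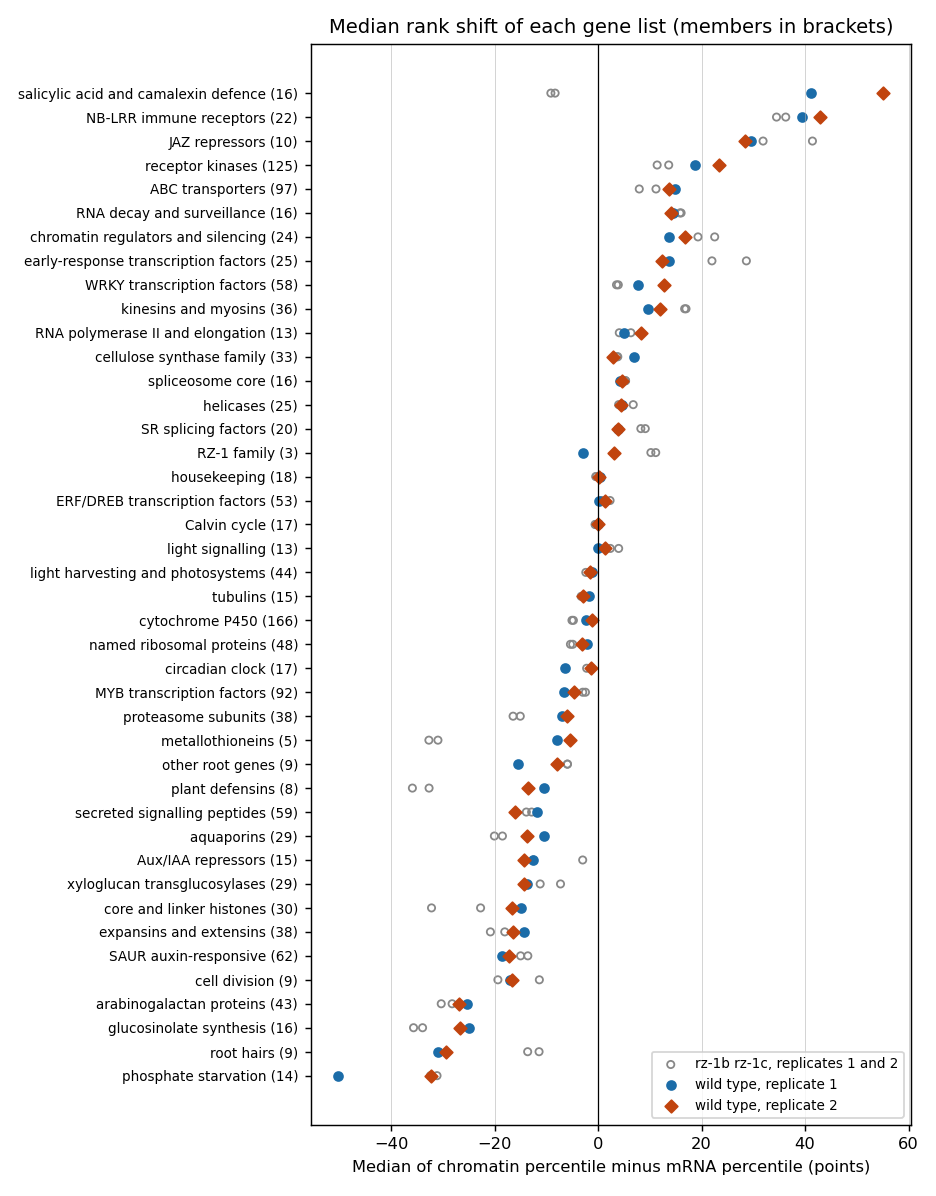
Median rank shift (chromatin percentile minus mRNA percentile, in points) of each gene list in wild-type replicate 1 (circles) and replicate 2 (diamonds), with the same genes in the 2 rz-1b rz-1c replicates as open circles. The order runs from salicylic acid and camalexin defence, NB-LRR receptors and JAZ repressors at the chromatin end to root hairs and phosphate starvation at the mRNA end; the defence list stands on the other side of 0 in the mutant.

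The mutant libraries gave the same order for most genes. By the same rule 2473 of the 20806 genes (11.9%) ranked higher on mutant chromatin and 2410 (11.6%) in mutant mRNA. Of the 2027 genes on the wild-type chromatin side, 1482 passed the threshold in the mutant too, which is 73.1% of the wild-type genes and 59.9% of the mutant ones. Of the 1926 on the mRNA side, 1278 did, which is 66.4% and 53.0%. The sign of the shift was the same in the mutant for 93.7% and 98.3% of them. Across genes the wild-type and mutant shifts had a Spearman's rho of 0.838. The mutant libraries share the preparation and the programs with the wild-type ones, so the order was compared across 2 genotypes, and other methods were not examined.

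Past the threshold in opposite directions in the 2 genotypes were 37 genes. Of these, 35 ranked higher on chromatin in the wild type and lower in the mutant. Both mutant chromatin values were below both wild-type values in all 35, and mutant mRNA was above wild-type mRNA in 34 of the 35. They included the camalexin genes CYP71A12, CYP71A13 and PAD3. The 2 genes in the other direction were IRT1, the root iron transporter, and AT2G46567. IRT1 had 0.243 and 0 FPKM on wild-type chromatin and 8.71 in wild-type mRNA, against 9.83 and 14.7 on mutant chromatin and 2.47 in mutant mRNA. The 37 were picked by their mutant values, and CYP71A13 and AT2G46567 were chosen after their values were seen.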

How the data were processed

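Wild-type chromatin-bound RNA (4 libraries in 2 columns) and mRNA (3 libraries in 1 column) were compared, with the rz-1b rz-1c mutant beside them. The authors deposited chromatin-bound values as FPKM for 33602 genes and mRNA values for 33554. The mRNA unit is not written in the file and was read as FPKM from its values. Named in the submitters' processing notes, without their roles, are Cuffdiff 2.2.1, Cufflinks, TopHat2 2.1.1, StringTie 1.3.4d, HISAT2 2.0.5 and the TAIR10 build. Read counts and depths are unknown, so no counting interval is given. No source used here says how the 2 libraries of each replicate number were combined.

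From these values, genes were ranked with Python 3.11.15, pandas 2.3.3 and numpy 2.4.6 among the 20806 genes with at least 1 FPKM in either kind of RNA. The 279 organelle genes, all at 0, were left out. The rank shift was taken per chromatin replicate and had to reach 25 points in both. Ties share a mean rank. The ranking was tested on simulated data. No p-values were computed, since mRNA has 1 value per gene. The unit of replication is the deposited column, and nothing says that replicates came from separate harvests.

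Gene names, types and overlaps came from RefSeq (assembly TAIR10.1), which matched 20737 of the 20806 genes. No genome was used, so length, exon number and sequence were not examined. Lists were written by hand or matched on RefSeq names, which cover ribosomal proteins and some families in part. Members and lists were chosen with earlier results of these data known, and several name-based lists were narrowed after their members were looked at. Named genes are the 10 largest shifts each way among protein-coding genes with at least 20 FPKM, 6 and 3 of other types, the 2 at each end of each list, the RZ-1 genes and those marked as chosen later. The genes named to complete a count, such as the clock genes past the threshold, were also taken from the values. An identical copy of mutant replicate 2 was 1 column left unused. The iCLIP libraries were not analysed here. Alternatives were other thresholds and minimums, a log2 ratio in place of ranks, each replicate left out, protein-coding genes alone, genes without overlap, and genes above 0 in each column, the last 2 chosen after seeing the data.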

Additional observations from a re-analysis of the deposited data

Results flagged for a closer look

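The wild type and the mutant moved in opposite ways for 7 named genes and for 1 list. Each value is the chromatin percentile minus the mRNA percentile, and the difference between genotypes was not tested. SAG13 had 94.7 points in wild-type and -28.7 in mutant plants. CYP82C2 had 89.5 and -33.4, CYP71A12 had 88.1 and -92.0, PAD3 had 73.1 and -58.4, and CYP71A13 had 49.0 and -65.6. The median of the 16 salicylic acid and camalexin defence genes was 46.4 points against -9.26 in the mutant, and 8 of the 16 had reached the minimum level through wild-type chromatin alone. In the other direction, AT2G46567 had -57.5 points against 48.8 in the mutant, and IRT1 had -37.8 and 44.0. In 31 of the 35 genes past the threshold towards chromatin in the wild type and towards mRNA in the mutant, wild-type chromatin replicate 2 was above replicate 1. Whether plants differed in stress or in harvest between the preparations was not tested.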

How the results depend on the processing

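No paired analysis was possible because the mRNA table holds 1 value per genotype and the comparison has no test. A threshold of 15 points gave 3809 genes towards chromatin and 3766 towards mRNA, and 40 points gave 816 and 672. A log2 ratio in place of ranks gave 3928 and 3749 with a pseudocount of 1, and 4512 and 4360 with 0.1; the cause was not tested. The other minimums, protein-coding genes alone, genes without overlap and genes above 0 in each column kept both counts within 1.5 times of the main ones. Leaving out 1 chromatin replicate gave 2416 to 2579 and 2407 to 2562, more because 1 replicate then sufficed. The share of genes also past the threshold in the mutant was 77.1% and 76.5% on the chromatin side with 1 mutant replicate alone, and 71.1% and 71.5% on the mRNA side. It ranged from 64.4% to 70.7% and from 58.3% to 62.4% without a wild-type replicate. Without overlapping genes it was 70.0% and 63.5%, and with genes above 0 in each column 73.9% and 70.1%. Of 53 lists and gene types, 29 had a median of at least 10 points either way, and 23 to 32 did under the alternatives. The sign was the same in 277 of 279 values of those lists. The 2 exceptions were the plant defensins, with 8.52 points without a minimum and 1.84 with genes above 0 in each column. Depth is unknown, so whether a gene listed at 0 lay below detection cannot be said.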
